A study of Mus musculus with 6 samples.

Results

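The PIM kinase family in mouse consists of 3 genes, Pim1, Pim2 and Pim3, and each was identified by its symbol among the 39179 gene identifiers measured by RNA-Seq in Peyer's patch B cells. All 3 genes reached at least 1 TPM in every pool and were therefore among the 12785 genes tested. Germinal center (GC) B cells (Fas+GL7+) and resting, or naive, B cells (Fas-GL7-) were sorted from Peyer's patches of the ileum of WT C57BL/6 littermates, all females aged 12 wk. Each population was measured in 3 replicates, with cells pooled from 5 mice in each. The naive gate is defined by the lack of Fas and GL7, so other B cells that lack both markers could be included in it. The question is how far each PIM kinase gene differs between B cells in the GC reaction and B cells at rest.

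PIM kinases are serine/threonine kinases that are active as soon as they are made, because they lack the regulatory domain that holds most kinases in check. The amount of kinase is therefore set by transcription, translation and the stability of the mRNA and protein. Cytokine receptors that signal through JAK and STAT proteins, and NF-kB, switch on PIM transcription, and the kinases in turn phosphorylate proteins of cell death, the cell cycle, protein synthesis and transcription. Pim1 was found as a common site of proviral insertion in mouse lymphomas, and its 5' part is a classical site of aberrant somatic hypermutation in B cell lymphoma. Pim1 is on the study's list of captured genes with mutation, Pim2 is on its list of those without, and Pim3 was found in neither list.

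Pim1 (ENSMUSG00000024014) lies on chromosome 17 from 29490785 to 29496111, Pim2 (ENSMUSG00000031155) on chromosome X from 7878306 to 7883432, and Pim3 (ENSMUSG00000035828) on chromosome 15 from 88862194 to 88865726 (RefSeq, GRCm38.p6). All 3 are on the plus strand. The 250 bases before each annotated start are printed below in the 5' to 3' direction, to describe how the promoters differ. A link between these sequences and expression was not tested. Capitals mark matches to a loose form of the NF-kB site (GGG and CC with 5 bases of any kind between them, read on both strands, overlapping matches included) and to CACGTG, the E-box. The windows are chr17:29490535-29490784 and chr17:29492835-29493084 for both annotated starts of Pim1, chrX:7878056-7878305 for Pim2, and chr15:88861944-88862193 for Pim3.
Pim1, first start: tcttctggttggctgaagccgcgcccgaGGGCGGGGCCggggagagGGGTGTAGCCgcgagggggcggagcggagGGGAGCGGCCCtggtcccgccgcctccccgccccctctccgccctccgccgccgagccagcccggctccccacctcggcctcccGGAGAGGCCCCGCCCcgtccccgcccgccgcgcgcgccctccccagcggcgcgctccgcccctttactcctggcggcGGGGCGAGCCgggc
Pim1, second start: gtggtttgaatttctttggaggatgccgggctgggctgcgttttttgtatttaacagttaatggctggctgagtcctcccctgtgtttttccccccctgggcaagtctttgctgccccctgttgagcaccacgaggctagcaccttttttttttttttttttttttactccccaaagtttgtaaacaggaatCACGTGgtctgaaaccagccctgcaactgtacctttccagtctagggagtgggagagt
Pim2: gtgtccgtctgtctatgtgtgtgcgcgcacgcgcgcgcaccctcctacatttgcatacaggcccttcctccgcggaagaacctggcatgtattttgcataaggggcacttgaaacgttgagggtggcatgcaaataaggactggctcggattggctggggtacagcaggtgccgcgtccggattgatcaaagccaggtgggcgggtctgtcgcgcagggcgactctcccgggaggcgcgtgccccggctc
Pim3: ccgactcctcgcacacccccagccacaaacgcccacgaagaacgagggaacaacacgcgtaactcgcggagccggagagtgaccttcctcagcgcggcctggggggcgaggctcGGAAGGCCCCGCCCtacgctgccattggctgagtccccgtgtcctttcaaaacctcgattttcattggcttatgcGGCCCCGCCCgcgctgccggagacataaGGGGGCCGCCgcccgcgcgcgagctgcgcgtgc

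The promoter at the first start of Pim1 was 82.4% G or C and held 36 CpG dinucleotides, against medians of 52.4% and 6 over the 32851 annotated promoter windows of this length. It was richer in G and C than 99.4% of all windows. The Pim3 promoter had 68.0% G or C and 31 CpG dinucleotides, the Pim2 promoter 62.0% and 22, and the second start of Pim1 48.0% and 4. The loose NF-kB motif matched 7 times before the first start of Pim1 and 4 times before Pim3, and at least once in 45.8% of all windows. CACGTG occurred only before the second start of Pim1, 58 bases upstream of it, and in 6.02% of all windows. STAT motifs, which are TTC and GAA with 3 or 4 bases of any kind between them (7.02% and 5.85% of all windows), and TATAAA (12.4%) matched none of the 4 windows, and AGCT, a hotspot motif of somatic hypermutation (70.4%), matched only that of Pim3. All motifs were read on both strands, and a match describes only the letters of a window. The study designed its capture probes for bases downstream of transcription starts, and those bases were not scanned here.

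The coding sequences are related but distinct. Aligned coding bases were identical at 77.6% between Pim1 and Pim3, 73.6% between Pim2 and Pim3, and 71.8% between Pim1 and Pim2 (GENCODE M1 transcripts). No stretch of 30 bases was shared between the transcripts of any pair of members, or with a coding transcript of another gene. An antisense noncoding gene, Gm16912, covers 468 of the 1972 exon bases of Pim1 in the same annotation. The library kit is not stated to keep the strand, so reads from the shared bases cannot be told apart, and the level of Gm16912 was not analysed here. In RefSeq, the start of Pim3 is also overlapped by the predicted gene Gm33049.

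The sort was checked by marker genes. All 6 GC markers, including Bcl6, Fas, Mybl1, Gcet2 and S1pr2, were called higher in GC B cells, against 35.5% of all genes tested. All 5 naive markers with a value, which included Ccr7, Klf2, Gpr183 and Fcer2a, were called lower, against 30.1%. Fas was itself used in the sort, so its difference was set by the gate. T cell markers summed to at most 3.51 TPM and myeloid markers to at most 6.41 TPM in any pool, and the 4 T cell markers were too low to be tested. FPKM summed to between 717537 and 774597 per pool. The steps between low FPKM values placed depth at roughly 9900000 to 16100000 reads per pool, although only 65.0% to 71.3% of low values were within 0.1 of a whole number of reads, so no count test was made. At these depths Pim1 rested on about 2423 to 2580 reads in the GC pools and 539 to 796 in the naive pools, Pim2 on about 291 to 575, and Pim3 on about 139 to 163 in GC and 460 to 752 in naive pools.

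Pim1 rose, Pim3 fell and Pim2 did not pass the test in GC B cells. Pim1, whose product is the founding kinase of the family, reached 180.3, 191 and 190.2 TPM in GC replicates 1 to 3. Its naive values were 42.9, 37.7 and 39.2 TPM in the same order. Every GC pool was above every naive pool, and the populations did not overlap for 70.7% of all genes tested. The means were 187 ± 6.03 and 39.9 ± 2.69 TPM (SD, n = 3 pools each), a 4.69-fold higher level in GC B cells. On the log2(TPM + 1) scale the difference between GC and naive B cells was 2.20 (SE 0.06; 95% interval 2.05 to 2.35; limma adjusted p = 6.69e-07 over all genes tested). Of all genes tested, 65.6% passed the same threshold, with 35.5% of all genes tested higher and 30.1% lower in GC B cells. A call by itself is therefore common here. Pim1 was nevertheless well inside the upper tail of the changes, with 624 of 12785 genes showing a larger increase. Plasma cell markers also moved: Igj and Prdm1 were called higher and Sdc1 lower in GC B cells, and their summed level was 663 to 698 TPM in GC and 26.3 to 44.9 TPM in naive pools. Their part in the difference of Pim1 was not tested. The level of Pim1 ranked above 93.5% to 93.9% of the genes tested in the GC pools and above 68.4% to 72.2% of them in the naive pools.

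Pim3, a kinase with overlapping functions in cell growth and energy metabolism, moved in the other direction. GC replicates 1 to 3 had 8.96, 8.65 and 10.3 TPM, and naive replicates 1 to 3 had 29.1, 28.5 and 26.8 TPM. The groups did not overlap, as for 70.7% of all genes tested, and the naive mean was 3.03-fold the GC mean (28.1 ± 1.24 against 9.29 ± 0.861 TPM, SD, n = 3 pools each). The log2 difference between GC and naive B cells was -1.50 (SE 0.09; 95% interval -1.72 to -1.29; limma adjusted p = 1.56e-05). A larger decrease was seen in 816 genes. Most epithelial markers moved in the same direction as Pim3. Of 6 markers, 4 (Krt8, Epcam, Vil1 and Fabp2) were called lower in GC B cells, against 30.1% of all genes tested. Krt18 was called higher, Krt19 did not pass, and none was at 0. Their summed level was 46.6 to 103 TPM in the GC pools and 119 to 152 TPM in the naive pools, and their part in the difference of Pim3 was not tested. In sorted bulk samples, fewer cells that express a gene and less RNA per cell cannot be told apart.

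Pim2, a kinase whose product promotes survival of lymphocytes deprived of cytokines, stayed within a narrow range. GC replicates 1 to 3 had 22.0, 21.8 and 27.1 TPM, and naive replicates 1 to 3 had 29.9, 26.2 and 28.8 TPM. The populations overlapped, because GC replicate 3 was above naive replicate 2. The GC mean was 23.6 ± 3.01 TPM and the naive mean 28.3 TPM with a coefficient of variation of 6.70% (SD, n = 3 pools each). The log2 difference was -0.26 (SE 0.10; 95% interval -0.51 to -0.003; limma unadjusted p = 0.0480, adjusted p = 0.0703), so a decrease of up to 1.42-fold lies within the interval. This call changed with 1 pool and with some scalings. Without GC replicate 3 the log2 difference was -0.36 (limma adjusted p = 0.0163), and it was -0.32 after quantile normalization (adjusted p = 0.0397) and -0.30 on FPKM as deposited (adjusted p = 0.0414). Median ratio scaling gave -0.30 as well and did not pass (limma adjusted p = 0.0501).

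**Figure D1:**
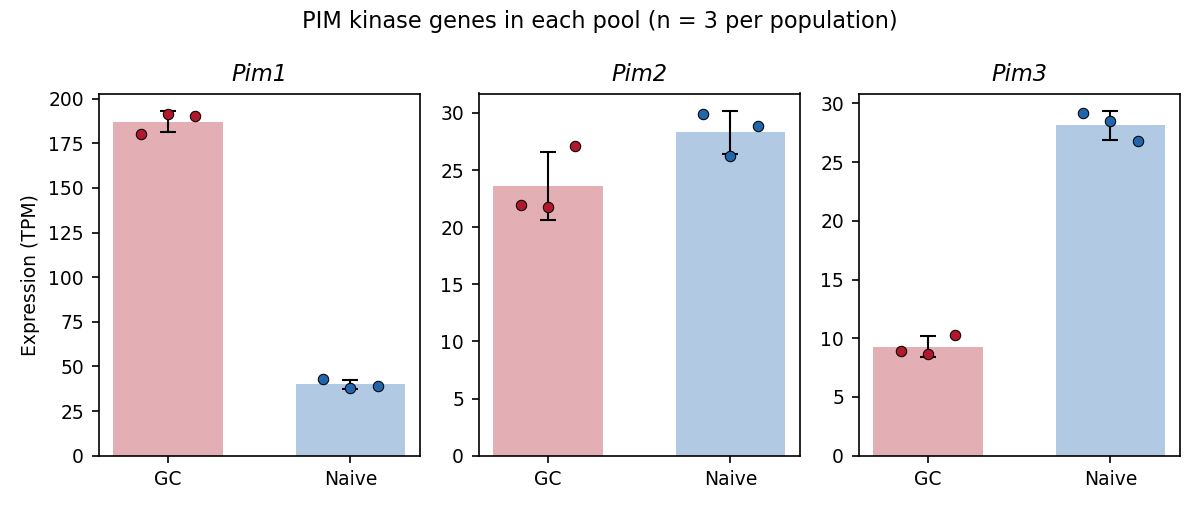
Expression of Pim1, Pim2 and Pim3 in TPM (linear axes from 0, with a separate range for each gene) in the 3 GC and 3 naive pools. Points are pools in the order of their numbers, bars are means and error bars are SD. The GC pools of Pim1 (180.3 to 191 TPM) are all above its naive pools (37.7 to 42.9 TPM), those of Pim3 (8.65 to 10.3 TPM) are all below its naive pools (26.8 to 29.1 TPM), and those of Pim2 overlap.

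**Figure D2:**
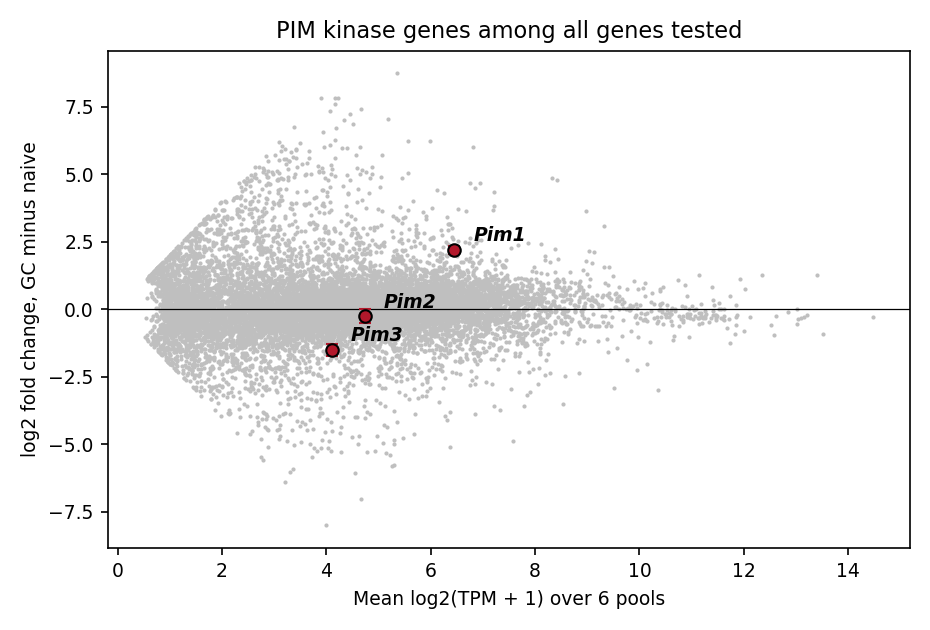
Log2 fold change between GC and naive B cells against the mean log2(TPM + 1) over 6 pools for the 12785 genes tested (gray) and the 3 PIM kinase genes (red, with 95% intervals from limma). Pim1 lies at 2.20, Pim2 at -0.26 and Pim3 at -1.50.

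The order of the 3 genes was clearer in GC than in naive B cells. TPM is a level per transcript length, so levels of different genes can be compared within the limits of the annotated lengths. In every GC pool the order was Pim1, Pim2, Pim3, and no range of one gene overlapped that of another. In naive B cells Pim1 was again the highest, but Pim2 (26.2 to 29.9 TPM) and Pim3 (26.8 to 29.1 TPM) overlapped. Their ratio, Pim2 to Pim3, was 1.03, 0.918 and 1.08 in naive replicates 1, 2 and 3, against 2.45, 2.52 and 2.64 in GC replicates 1, 2 and 3.

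Summed over the family, PIM transcripts came to 211, 222 and 228 TPM in GC replicates 1 to 3, and to 102, 92.4 and 94.8 TPM in naive replicates 1 to 3. The difference in mean log2 of the sum was 1.19 (SE 0.05), a 2.28-fold higher level in GC B cells, with a two-sided exact permutation p = 0.1. This is the smallest value that 3 pools against 3 allow, so no comparison of this kind could pass 0.05. The make-up of the sum differed as well. Pim1 accounted for 85.1% ± 1.36 of PIM transcripts in GC B cells and 41.4% ± 0.655 in naive B cells (SD, n = 3 pools each). The share of Pim2 was 10.7% ± 1.07 in GC and 29.4% ± 1.04 in naive B cells, and that of Pim3 was 4.22% ± 0.306 and 29.2% ± 1.42 (SD, n = 3 pools each).

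A ratio of 2 genes within a pool does not change when all values of the pool are multiplied by the same factor. Quantile normalization can change it, and the ratios were not computed under that setting. The ratio of Pim1 to Pim3 was between 18.5 and 22.1 in the GC pools and between 1.32 and 1.47 in the naive pools, a log2 difference of 3.83 (SE 0.09). The ratio of Pim1 to Pim2 was between 7.02 and 8.78 in GC and between 1.36 and 1.44 in naive pools, a log2 difference of 2.50 (SE 0.10). For Pim2 to Pim3 the log2 difference was 1.33 (SE 0.07). Each of the 3 ratios was higher in 3 of 3 GC pools than in any naive pool, and each of these 3 comparisons gave a two-sided exact permutation p = 0.1, the smallest possible.

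**Figure D3:**
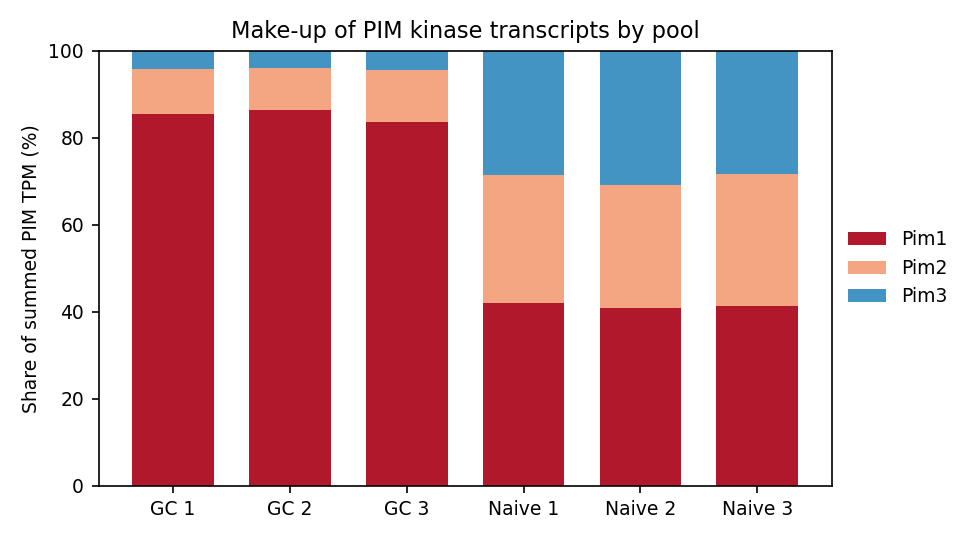
Share of the summed PIM TPM (%) taken by Pim1, Pim2 and Pim3 in each of the 6 pools. Pim1 takes 83.6% to 86.3% in the GC pools and 40.8% to 42.1% in the naive pools, and Pim3 takes 3.90% to 4.51% in GC and 28.2% to 30.9% in naive pools.

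Genes with a role around the PIM kinases were examined in 4 lists. Of the 21 genes upstream of PIM transcription, which encode cytokine receptors, CD40, JAK and STAT proteins and NF-kB subunits, 20 were tested, and 18 fell in GC B cells (90.0%, against 30.1% of all genes tested) while 0 rose (35.5%). Under limma's unadjusted p of less than 0.05 there were also 0 higher genes in this list. The median log2 difference was -0.58, against 0.03 over all genes tested. Pim1 rose and Pim3 fell, and the part of these upstream genes in either difference was not tested. Stat4, a STAT protein of IL-12 signaling, was at 1.36, 0.664 and 0.906 TPM in GC and 37.2, 38.4 and 37.1 TPM in naive replicates 1, 2 and 3 (log2 difference -4.30, limma adjusted p = 1.31e-06). Il2rg, the common chain of the receptors for IL-2, IL-4 and IL-21, was at 114 ± 7.90 TPM in GC B cells against 376 ± 4.76 TPM in naive B cells (SD, n = 3; log2 difference -1.72). Il4ra, the other chain of the IL-4 receptor, fell from 129 ± 5.85 to 46.8 ± 0.438 TPM (SD, n = 3; log2 difference -1.45). Jak2 and Stat5a did not pass the test, with log2 differences of 0.11 and -0.13. Il7r was below 1 TPM throughout and was not tested.

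Among 22 genes for PIM substrates, 9 rose and 8 fell (77.3% called, against 65.6% of all genes tested; median log2 difference -0.03). Rela, which was called lower, is counted both here and among the genes upstream of PIM transcription. The genes that rose included the cell cycle phosphatases Cdc25c and Cdc25a, which activate cyclin-dependent kinases, and the transcription factor Myb. Cdc25c was at 18.2, 17.3 and 17.4 TPM in GC and at 0.0675, 0.137 and 0.219 TPM in naive replicates 1, 2 and 3 (log2 difference 4.03). Myb was at 9.88 ± 0.532 TPM in GC B cells against 1.13 ± 0.0161 TPM in naive B cells, and Cdc25a was at 30.7 ± 1.47 and 7.79 ± 0.507 TPM (SD, n = 3; log2 differences 2.35 and 1.85). The cell death gene Bad and the cell cycle inhibitor gene Cdkn1a were also called higher (log2 differences 1.46 and 1.10). Foxo1 did not pass the test (-0.10). The genes that fell most were Cdkn1b, which encodes the cell cycle inhibitor p27, the transcription factor Foxo3, which drives cell cycle arrest and death genes, and Runx3. Cdkn1b was at 6.90, 5.79 and 7.30 TPM in GC and 94.0, 92.9 and 83.9 TPM in naive replicates 1, 2 and 3 (log2 difference -3.58). Foxo3 was at 4.65 ± 0.559 and 20.3 ± 1.95 TPM and Runx3 at 13.5 ± 0.973 and 45.9 ± 1.73 TPM in GC and naive B cells (SD, n = 3; log2 differences -1.91 and -1.70). Proliferation markers also moved with the populations, and the summed level of Mki67 and Top2a was 619 to 651 TPM in GC and 4.72 to 6.01 TPM in naive pools. Their part in these differences was not tested.

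Of 10 genes for feedback inhibitors of cytokine signaling and for proteins that act on PIM protein, 9 were tested, of which 6 rose and 1 fell (77.8% called, against 65.6% of all genes tested; median log2 difference 0.57). The feedback inhibitors parted. Socs1, which binds and blocks JAK kinases, rose from 13.1 ± 1.86 to 31.4 ± 1.35 TPM (SD, n = 3; 2.39-fold), whereas Socs3, which blocks signaling from IL-6 type receptors, was at 4.70, 5.40 and 5.35 TPM in GC and 52.9, 47.8 and 59.1 TPM in naive replicates 1, 2 and 3 (log2 difference -3.14). The chaperone genes Hsp90aa1 and Hsp90ab1, whose products stabilize PIM kinases, rose with log2 differences of 1.12 and 0.80. The phosphatase genes Ppp2r5a and Ppp2ca of the same list also rose (0.75 and 0.57), and Ppp2cb did not pass the test (0.16). The stability of PIM protein was not measured. Cish was at 0.111 ± 0.0481 TPM in GC B cells against 0.732 ± 0.315 TPM in naive B cells (SD, n = 3) and was not tested.

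Other survival and growth kinases share substrates with the PIM family. Among 11 of their genes, 3 rose and 3 fell (54.5% called, against 65.6% of all genes tested; median log2 difference -0.09). Akt1 was at 288, 296 and 291 TPM in GC and 99.7, 98.8 and 98.1 TPM in naive replicates 1, 2 and 3 (log2 difference 1.55), and the S6 kinase gene Rps6kb1 and the gene of the activating kinase, Pdpk1, also rose (1.27 and 0.42). The genes that fell included Sgk1 and Sgk3, with log2 differences of -1.85 and -0.99. Mtor, at 17.9 ± 4.28 TPM in GC B cells against 19.7 ± 1.75 TPM in naive B cells (SD, n = 3), did not pass the test.

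**Figure D4:**
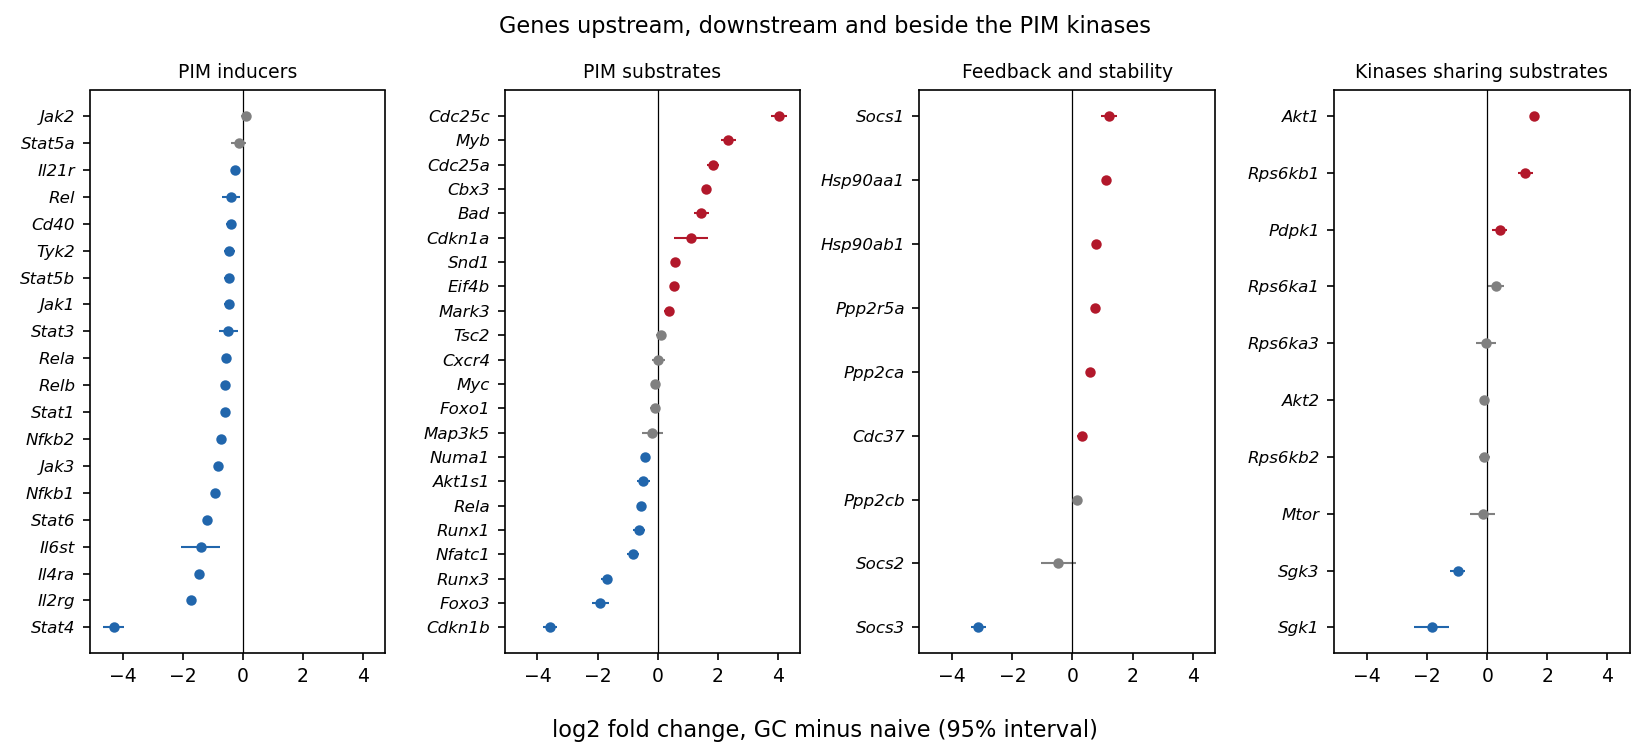
Log2 fold change between GC and naive B cells with 95% intervals (limma) for the tested genes of 4 lists around the PIM kinases, except 1 kinase gene that is not shown. Red genes were called higher and blue genes lower in GC B cells at an adjusted p under 0.05, and gray genes were not called. All 18 called genes upstream of PIM transcription lie to the left of 0, whereas the substrates lie on both sides.

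The genes whose pattern over the 6 pools was closest to each member were sought among 8431 other genes whose mean was 10 TPM or more, by the root mean square difference of log2(TPM + 1) values centered on each gene. With 3 pools in each of 2 populations, this measure mostly reflects the size of the difference between populations and is given as a description. Closest to Pim1 were Sord (0.04 log2 units), Top1 (0.06), which encodes DNA topoisomerase I, and Ube2s (0.06), a ubiquitin conjugating enzyme of mitosis. Top1 was also close in level, at 189 ± 6.02 TPM in GC B cells against 41.2 ± 0.440 TPM in naive B cells (SD, n = 3). Closest to Pim2 were Gnaq (0.03), Atad3a (0.04) and Mrpl30 (0.05), and closest to Pim3 were Rassf5 (0.04), Dexi (0.05) and Nnt (0.05). Pearson's r over the 6 pools was at least 0.960 for each of these 9 genes.

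Finally, the levels of Pim1 and Pim2 were set beside those of the captured genes of the study. In GC B cells Pim1 was expressed above 61.9% ± 1.11 (SD over 3 pools) of the other genes among 271 captured genes listed with mutation and with a value, and 103 of these genes were above it. In naive B cells it was expressed above 34.8% of them. Pim2 was above 69.3% ± 1.78 of the other genes among 1085 captured genes listed without mutation, whose median was 2.92 TPM in GC B cells. Its position was 73.4% in naive B cells. Among listed genes of at least 1 TPM alone, Pim2 stood above 45.4% of them in GC B cells.

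**Figure D5:**
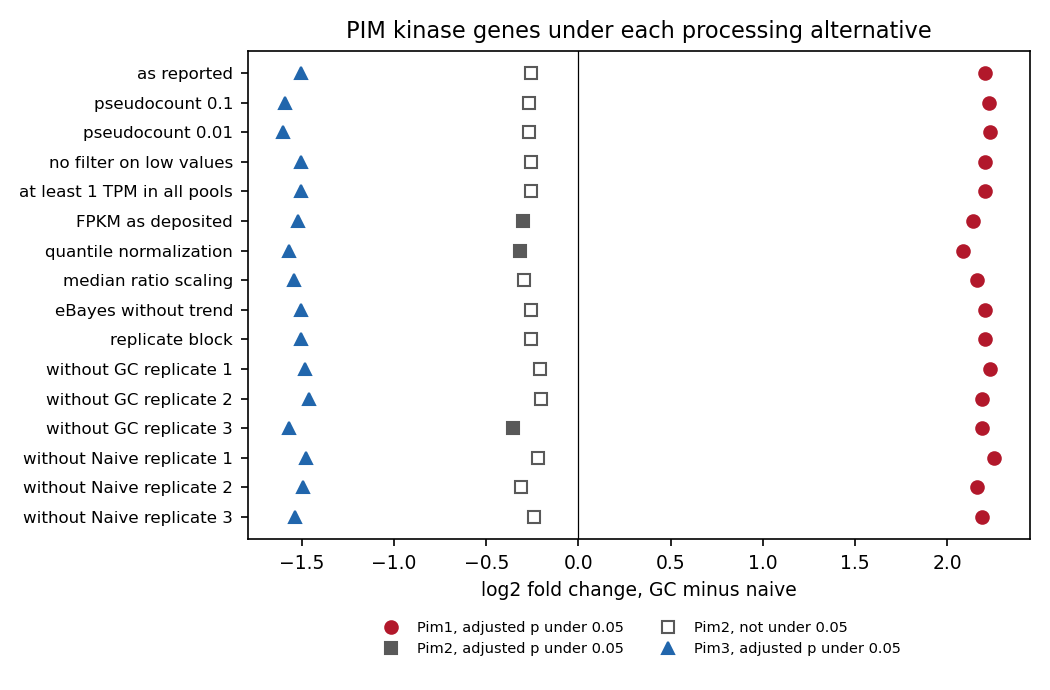
Log2 fold change between GC and naive B cells for Pim1 (circles), Pim2 (squares) and Pim3 (triangles) as reported and under 15 alternatives, with filled symbols for an adjusted p under 0.05 in limma. Pim1 stays between 2.08 and 2.25 and Pim3 between -1.60 and -1.46, whereas Pim2 lies between -0.36 and -0.20 and passes the threshold in 3 of the 15 alternatives. The filters, the variance prior and the replicate block could change only the adjusted p.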

How the data were processed

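RNA-Seq was analysed from 3 pools of GC and 3 pools of naive B cells. Adapters were trimmed by the authors (cutadapt v1.9), reads were quantified with RSEM v1.2.25 against NCBIm38 v75 transcripts, and the deposited values are FPKM per gene and pool with 2 decimals. The package edgeR is also named among the upstream tools, but scaling between pools is not stated. FPKM was rescaled to TPM (FPKM over the pool total times 1000000). Values from RSEM depend on the annotated transcript lengths, and depth was only estimated, from the spacing of low FPKM values in single-transcript genes.

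Genes reaching 1 TPM in 3 or more pools were compared on log2(TPM + 1) with limma 3.58.1 in R 4.3.3 (lmFit, eBayes with a trend), without pairing, with Benjamini-Hochberg adjustment over all genes tested and a threshold of 0.05. SE and 95% intervals are from this fit, and intervals are not adjusted. Sums and ratios were compared by exact permutation over pools. Python 3.11.15 was used for the remaining steps, together with scipy 1.17.1, biopython 1.88, numpy 2.4.6, matplotlib 3.10.9 and pandas 2.3.3.

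Symbols matched 33398 of 39179 identifiers. Named genes are the members, the markers of the sort and the 3 genes closest in pattern to each member. Up to 3 genes with the largest change in each direction among those called in each list are also named. Other list genes were chosen after their values were seen. Some genes that meet this rule are not reported here. Members and lists were chosen with earlier results of these data known. Alternatives covered the pseudocount, filters, scaling, the variance prior, a replicate block and the omission of single pools. Whether pools share an extraction or sequencing run is not given in the sources used here. Lists of captured genes were taken by name only from the study's tables. Promoter sequences are from RefSeq (GRCm38.p6), in which all 3 members were matched. Protein sequences were not used here.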

Additional observations from a re-analysis of the deposited data

How the results depend on the processing

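In all, 163 alternatives were computed, and 156 of them were counted as unchanged. Tests were unchanged if neither sign nor call changed, and counts of genes if they stayed within 1.5 times the reported count. Positions were unchanged if they moved by less than 1 SD over pools. For the family sum and the ratios no call was possible, so only the sign was compared. The replicate block, the filters and the variance prior could change the p-value of a gene but not its log2 difference. Pim2 passed the threshold on FPKM as deposited (log2 difference -0.30), after quantile normalization (-0.32), and without GC replicate 3; leaving out single pools gave -0.36 to -0.20. Its adjusted p in limma lay between 0.0163 and 0.187 over its 15 alternatives. The cause was not tested. Leaving out single pools gave 2.16 to 2.25 for Pim1 and -1.57 to -1.46 for Pim3.

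The position of Pim1 among captured genes with mutation was 60.4% to 62.2% without single GC pools and 59.9% among those of at least 1 TPM. It moved by more than 1 SD without GC replicate 2, without GC replicate 3 and among genes of at least 1 TPM. The position of Pim2 was 67.9% to 69.8% and 45.4%, and only the last of these moved by more than 1 SD. The last follows from leaving out weakly expressed genes.

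The 8392 genes called (54.1% higher in GC) became 8530 under quantile normalization (47.8% higher), and the median log2 difference of all genes moved from 0.03 to -0.06. With the replicate block, 7960 genes were called, and the log2 differences were 2.20 (limma adjusted p = 7.37e-05) for Pim1, -0.26 (0.0729) for Pim2 and -1.50 (0.000484) for Pim3. For the family sum and the ratios, the block gave 1.19, 2.50, 3.83 and 1.33 with an exact sign-flip p = 0.25, the smallest that 3 pairs allow. With equal numbers of pools in both populations, the block could not change any of these differences, only their p-values. Deviations of pools with the same number correlated by 0.083, 0.0225 and 0.0456 across genes, and those of pools with different numbers by -0.0746 to 0.0298. Naive replicate 2 correlated best with GC replicate 3 and every other pool with its own number. Whether equal numbers mark cells of the same mice is not given in the sources used here, and the pools were not treated as pairs.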

Other observations

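The protein-coding neighbors of each member on the chromosome (RefSeq, GRCm38.p6) were examined after the values of the members were known. Fgd2, upstream of Pim1 by 111250 bases and encoding an activator of the GTPase CDC42, was at 26.1 ± 1.81 TPM in GC B cells against 207 ± 14.2 TPM in naive B cells (SD, n = 3; log2 difference -2.94, limma adjusted p = 4.75e-07), opposite to Pim1. Mtch1, the next gene on that side, did not pass the test (0.28, limma adjusted p = 0.0669). On the other side, Tmem217 was below 1 TPM in every pool, and Tbc1d22b rose by a log2 difference of 0.39 (limma adjusted p = 0.0147), from 13.5 ± 1.37 to 18.0 ± 1.37 TPM (SD, n = 3).

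Pim2 lies in a dense stretch of the X chromosome, 1680 bases from Otud5 and 489 bases from Slc35a2. Otud5, which encodes a deubiquitinase, was at 134 ± 3.79 TPM in GC B cells against 157 ± 6.34 TPM in naive B cells (SD, n = 3; log2 difference -0.23, limma adjusted p = 0.00534). Slc35a2 (log2 difference -0.08, limma adjusted p = 0.510) and Pqbp1 (-0.14, limma adjusted p = 0.0553) did not pass, nor did Kcnd1 (-0.39, limma adjusted p = 0.0934). The gene model that overlaps the start of Pim3, Gm33049, was not matched to a value. Creld2, the next gene on that side, was at 41.3 ± 2.58 TPM in GC B cells against 42.0 ± 3.76 TPM in naive B cells (SD, n = 3; log2 difference -0.02, limma adjusted p = 0.857), and Ttll8 and Mlc1 were below 1 TPM in every pool.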
